A study of Drosophila melanogaster with 8 samples.

Results

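The larval midgut of *Drosophila melanogaster* changes its gene expression from one compartment to the next, and the genes described here are those that changed least. They are the 150 genes chosen by the smallest ratio of the highest to the lowest FPKM along the gut (a read level adjusted for transcript length and library size). Of 14208 rows in the table, 14175 had a gene name, and 1356 of these were quantified without a warning and had at least 20 FPKM in all 8 subsections. The 140 genes among them whose names mark ribosomal proteins, proteasome subunits or the V-ATPase were left out, and the remaining 1216 genes were ranked. The 150 members are thus 12.3% of the ranked genes by construction. Because measured values chose them, their evenness is a description of these libraries and not a finding.

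Midguts of larvae feeding in the third instar were cut into 8 subsections, and the RNA of each was sequenced as 1 library. The anterior midgut gave M1, M2 and M3–5, its middle gave M6 with the copper cells and M7–8 behind it, and M9, M10–11 and M12–13 were posterior. Every library shared a genotype, given as strain w1118 in the labels. By the methods of the study, the larvae carried GAL4 under the promoter of *Cyp4d2* and a nuclear GFP under UAS, so that GFP guided the cuts. No treatment was given, and each library pooled the guts of many larvae. Without replicates, no difference between subsections was tested, and no value below carries an error over larvae.

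Every cell needs machinery to translate mRNA, move vesicles, shape its cytoskeleton and degrade worn proteins, and the genes for such tasks are often called housekeeping genes. The midgut epithelium is made mostly of large enterocytes that secrete digestive enzymes and absorb nutrients, with copper cells that acidify the lumen in its middle, and it is wrapped in visceral muscle. In a bulk sample, fewer cells of a type and less RNA per cell cannot be told apart.

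Midgut genes were present in every library, with *mex1* at 315.5 FPKM or more in each, but not every midgut marker was. The summed FPKM of 6 midgut marker genes lay between 529 in M12–13 and 104409 in M2. In M12–13 *mex1* (466.9 FPKM) and *Jon65Aiv* (55.9) made up most of the sum, and *alphaTry*, *betaTry*, *Amy-d* and *Jon25Bi* were each at or below 2.97. Of the copper cell markers, *lab* was highest in M6 (32.9 FPKM, against 5.396 in M7–8) and *Ptx1* in M7–8 (92.7 FPKM, against 41.1 in M6). Visceral muscle markers summed to between 514 FPKM in M6 and 1691 FPKM in M12–13, so muscle RNA was present in every library. Single genes of fat body stayed at or below 12.1 FPKM, those of salivary gland at or below 0.321, and those of hemocytes at or below 1.33. The M6 library stood apart, since its values had a median ratio to the geometric mean of all libraries of 0.774, against 0.994 to 1.08 elsewhere. The study's methods also report fewer reads and RNA more prone to degradation for M6.

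The gene *decay* encodes an effector caspase, a protease of the programmed cell death pathway. Its row (FBgn0028381) covered 3R, 12324780 to 12326772, on the release 5 genome. From front to back, *decay* had 241.4, 241.8, 223.6, 207.9, 274.3, 246.1, 205.1 and 155.6 FPKM. The value in M12–13 was the lowest, and the value in M7–8 was the highest. The ratio was 1.76, which placed *decay* at rank 110 of the 150 members, and without M12–13 it fell to 1.34. Its standard deviation over the 8 subsections was 35.7 FPKM around a mean of 224.5, a spread along the gut and not an error.

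Other caspases of the table varied more along the gut, and they were looked up after the values of *decay* had been seen. *Damm*, also a caspase, ran from 27.6 FPKM in M2 to 265 in M6, a ratio of 9.61. The effector caspase *Ice* ran from 18.8 to 45.4 FPKM (ratio 2.41), and the effector caspase *Dcp-1* from 10.3 to 41.4 (ratio 4.03). The initiator caspase *Dredd* had a ratio of 2.005 and the initiator caspase *Nc* (Dronc) 4.12, at no more than 23.03 FPKM. By mean level, *decay* was the highest of the 6 caspases found in the table, ahead of *Damm* at 114.1 FPKM. Of the 3 ranked genes in the apoptosis list, 1 was a member.

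The smallest ratio above the floor of 20 FPKM belonged to *me31B*, a DEAD-box RNA helicase that represses and stores mRNA. Its values from front to back were 51.8, 50.3, 45.3, 50.6, 50.6, 43.8, 47.5 and 46.6 FPKM, a ratio of 1.18. No subsection stood out, and M6 lay among the higher values. *CG7945* followed at 1.20, with all values between 20.7 and 24.9 FPKM, close to the floor of 20. Next came *eIF-4a* (now eIF4A), the DEAD-box helicase that unwinds mRNA for the ribosome. It had 449.8, 510.8, 503.4, 543.9, 445.4, 472.7, 503.1 and 468.5 FPKM, a ratio of 1.22. Thus 2 related RNA helicases, one acting in repression of mRNA and the other in initiation of translation, were among the 3 evenest genes of the ranking.

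*Tpr2*, a co-chaperone with tetratricopeptide repeats, had 57.0 to 70.7 FPKM (ratio 1.24). *CG31694* (now Ifrd1) had 36.8 to 46.6 FPKM (ratio 1.27). *Vps4*, the ATPase that disassembles ESCRT filaments on endosomes, had 37.1 to 48.4 FPKM (ratio 1.31). *Lis-1*, a regulator of the dynein motor, had 23 FPKM in M12–13 and 25.9 to 30.2 elsewhere (ratio 1.31). *Kap-alpha3*, an importin alpha that carries cargo into the nucleus, ran from 61.9 FPKM in M6 to 82.5 in M10–11 (ratio 1.33). Its values stepped up behind M6, from at most 68.0 FPKM in front to at least 79.1 behind. *Trp1*, the Sec62 homolog that works in import of proteins into the endoplasmic reticulum, had 28 to 37.4 FPKM (ratio 1.34). The plot of the evenest members shows these profiles beside that of *decay*.

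**Figure D1:**
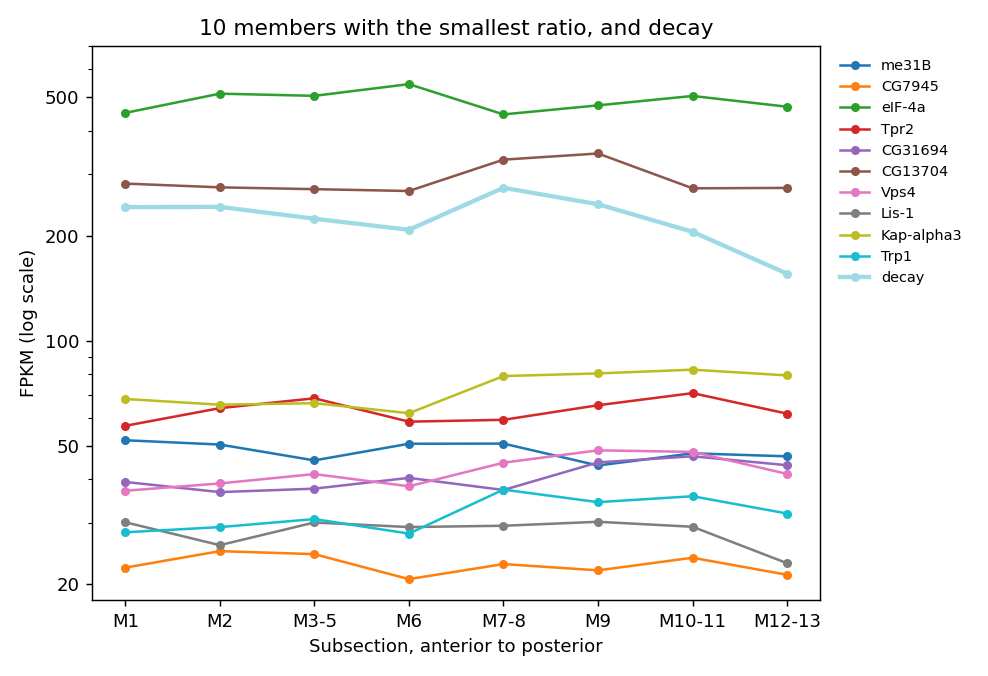
FPKM (log axis) in the 8 subsections from anterior to posterior for the 10 members with the smallest ratio and for *decay* (thick line); each point is 1 library. The lines stay nearly flat, from *CG7945* near 22.8 FPKM on average to *eIF-4a* near 487, while *decay* drops to 155.6 in M12–13.

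Across all members the ratio ran from 1.18 to 1.85 with a median of 1.65, and over the ranked genes the median was 3.46. Only 34 members had a ratio under 1.5. The edge of the set was continuous: *Past1* (1.846), *TSG101* (1.847) and *CG1161* (1.849) were the last inside, and the splicing factor *B52* (1.849), *Galphai* (1.850) and *CG15611* (1.851) the first outside. The authors' 95% intervals are wide, as dispersion was set without replicates. For every member the lower bound was 0 in all 8 libraries, and the upper bound had a median of 2.603 to 2.635 times the value. All 8 values lay inside all 8 intervals in 150 of 150 members, which follows from bounds this wide and the small ratios that chose them. Over the ranked genes, members included, the share was 36.5% (444 of 1216), and nothing is read from the contrast. These intervals separate no subsections of a member and resolve no order among neighboring ranks.

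The median member had a mean of 46.8 FPKM, against 109 for the other ranked genes, but 30 of the 150 had a mean of at least 100 FPKM. The highest was *Tsp29Fb*, which encodes a tetraspanin membrane protein. It had 1624.2, 1633.3, 1677.1, 973.1, 1436.0, 1732.6, 1692.9 and 1358.1 FPKM. M6 was the low point, and the ratio was 1.78. *CG15098* had 481.1 to 794.0 FPKM (ratio 1.65), and *14-3-3zeta*, an adaptor that binds phosphorylated proteins, 418.6 to 739.3 (ratio 1.77). *chic*, the profilin that feeds actin monomers to growing filaments, rose from 341.8 FPKM in M3–5 to 589.2 in M10–11 (ratio 1.72). *betaTub56D*, a beta tubulin, had 297.0 FPKM in M6 and 370.7 to 527.2 elsewhere (ratio 1.77). *Atg8a*, the ubiquitin-like protein attached to autophagosome membranes, was highest in M6 at 490.0 FPKM and lowest in M12–13 at 271.6 (ratio 1.80). *Ef1gamma* (now eEF1gamma), a subunit of the elongation factor complex, was also highest in M6, at 410.6 FPKM against 244.8 to 307.5 elsewhere (ratio 1.68).

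The other 2 of the 10 most abundant members build the same structure. Smooth septate junctions seal the gut epithelium between neighboring cells, and *Ssk* (Snakeskin) and *CG13704* (now hoka) encode membrane proteins of these junctions. *Ssk* had 714.7, 577.5, 573.8, 572.1, 520.7, 420.8, 425.6 and 436.7 FPKM, so it declined from front to back with a ratio of 1.70. *hoka* had 282.0, 275.1, 271.8, 268.5, 330.3, 344.0, 273.4 and 274.1 FPKM, with higher values in M7–8 and M9 only, and its ratio of 1.28 was the sixth smallest of all. The junction's other 2 known components, named after their values were seen, were less even. *Tsp2A*, a tetraspanin, fell from 614.1 FPKM in M1 to 280.7 in M12–13 (ratio 2.19). *mesh* ran the other way, from 58.9 FPKM in M2 to 371.9 in M7–8 (ratio 6.31), and was not ranked because of its quantification status.

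A ranking by variance takes some of the same genes as variable. The expression limit of the study (above 5 FPKM anywhere or a mean above 3) was passed by 6308 named genes. The top 20% of them by variance of unlogged FPKM held 1262 genes, and 11 of the 150 members were among them. Such a variance grows with level. Ranked genes had a median mean of 96.8 FPKM, against 17.1 for named genes with a mean above 3. The share of all ranked genes in this top 20% was not counted, so nothing is read from the count of 11. These 11 were *CG15098*, *Ef1gamma*, *crc*, *Ssk*, *chic*, *14-3-3zeta*, *betaTub56D*, *Tsp29Fb*, *Atg8a*, *Rab11* and *Arpc1*. The limit and the share follow the filter that the study applied before clustering, whose own counts differed slightly. The study reported *crc* (cryptocephal) as a core gene of a cluster that is high in front and lower in the middle midgut. Here *crc* ran from 287.5 FPKM in M2 to 170.5 in M7–8 (ratio 1.69).

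The lists of gene functions were written with results of these data known and cover 50 of the 150 members, and 220 of the 1216 ranked genes. Each share below stands beside the 12.3% that the rule takes from all ranked genes. The shares were not tested.

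Translation factors gave 9 members of 28 ranked genes, with a median ratio of 2.14 over the 28. Besides *eIF-4a* and *Ef1gamma*, *pix*, the ABC-type ATPase that recycles ribosomes, had 72.6 to 100.8 FPKM (ratio 1.39). *eIF-4E* (now eIF4E1), which binds the mRNA cap, had 61.8 FPKM in M6 and 72.1 to 104.3 elsewhere (ratio 1.69). *eIF-1A*, which helps the small ribosomal subunit scan for the start codon, was highest in M6 at 127.1 FPKM and lowest in M1 at 70.3 (ratio 1.81). The other 4 belong to eIF3, the large complex that holds the small subunit during initiation.

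Of 9 eIF3 subunits looked up, which may not be all, 5 were members, counting *CG8636* (now eIF3g1), which the list did not hold. The member subunits split by direction. *eIF3-S10* (eIF3a) and *eIF3-S8* (eIF3c) were lower in front, with 30.8, 30.7 and 35.6 FPKM in M1, M2 and M3–5 against 48.1, 43.5 and 42.0 in M9, M10–11 and M12–13 for *eIF3-S10*. *eIF-3p40* (eIF3h) was higher in front, with 122.4, 147.7 and 137.9 FPKM against 109.0, 89.4 and 90.6. On the log2(FPKM + 1) scale, the mean of the 3 anterior minus that of the 3 posterior libraries was −0.45 for *eIF3-S10* and −0.38 for *eIF3-S8*, and 0.37 for *CG8636*, 0.49 for *eIF-3p40* and 0.26 for *Adam* (eIF3j). The first pair has median transcript lengths of 3832 and 3209 nt, and the other 3 have 1027, 1339 and 1296 nt. The 4 looked-up subunits outside the set were *eIF3-S9* (ratio 1.92, length 2523 nt, difference −0.53), *eIF-3p66* (2.06, 2012 nt, 0.57), *Int6* (1.995, 1520 nt, 0.84) and *Trip1* (2.33, 1177 nt, 1.04). Thus, of the 9 subunits looked up, the 3 with the longest transcripts were lower in front and the 6 with shorter ones higher.

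Membrane traffic gave 14 members of 54 ranked genes. Small GTPases were *Rab10* (83.7 to 120.7 FPKM, ratio 1.44), *Rab11* of recycling endosomes (132.5 to 242.2, ratio 1.83), *Rab2* of the Golgi (62.8 to 107.8, ratio 1.72) and *Arf51F* (now Arf6; 41.4 to 70.8, ratio 1.71). *Gdi*, which extracts Rab proteins from membranes, had 130.2 to 201.0 FPKM (ratio 1.54). *Snap*, which with NSF takes SNARE complexes apart, had 69.8 FPKM in M6 and only 39.5 to 49.8 elsewhere (ratio 1.76). *TER94*, the p97 ATPase that pulls ubiquitinated proteins out of membranes, was lowest in M6 at 84.3 FPKM and highest in M9 at 147.3 (ratio 1.75), and its cofactor *Ufd1-like* had 22.6 to 34.3 (ratio 1.52).

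The ESCRT machinery, which sorts ubiquitinated cargo into multivesicular bodies, had 5 members among 12 genes looked up after their values were seen. In addition to *Vps4* they were *Hrs* (21.5 to 36.9 FPKM, ratio 1.72), *TSG101* (27.0 to 49.9, ratio 1.85), *ALiX* (34.6 to 56.0, ratio 1.62) and *CG7967* (now Vta1, a cofactor of Vps4; 40.6 to 74.2, ratio 1.83). *Vps4*, *Hrs*, *ALiX* and *CG7967* all peaked in M9. Their partners were less even where they were high enough to be ranked: *Vps20* 2.01, *shrb* 2.34, *Vps28* 3.02 and *Vps25* 3.69. *lsn*, *Vps36* and *Stam* fell under 20 FPKM in at least 1 subsection, with ratios of 1.46, 1.90 and 3.51, so *lsn* was as even as some members at a lower level.

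The small and the medium subunit of the AP-1 clathrin adaptor were members: *AP-1sigma* at 61.9 to 88.9 FPKM (ratio 1.44) and *AP-1mu* at 29.9 to 54.5 (ratio 1.82). They leaned in opposite directions, with anterior minus posterior differences of −0.35 and 0.37. The large subunits *AP-1-2beta* (ratio 1.70) and *AP-1gamma* (ratio 3.01) went under 20 FPKM and were not ranked. The sorting nexins *Snx1* (26.7 to 42.0 FPKM, ratio 1.58) and *Snx6* (30.9 to 45.2, ratio 1.46), which work with the retromer on endosomes, were members as well. *Vps26* and *Vps35* of the retromer itself did not pass the floor and had ratios of 2.79 and 2.71.

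The cytoskeleton gave 9 members of 31 ranked genes. *capt*, the cyclase-associated protein that recycles actin monomers, had 137.7 FPKM in M6 and 191.3 to 223.7 elsewhere (ratio 1.62). *cpa*, a subunit of the capping protein, had 65.4 to 113.6 FPKM (ratio 1.74), and *sqh*, the regulatory light chain of nonmuscle myosin, 154.7 to 254.1 (ratio 1.64). The dynein light chain *ctp* had 85.8 to 128.2 FPKM (ratio 1.49), and *Dmn*, a dynactin subunit, 31.6 to 54.0 (ratio 1.71). Of the 8 Arp2/3 genes, which nucleate branched actin, *Arpc2* (86.9 to 131.2 FPKM, ratio 1.51) and *Arpc1* (139.9 to 255.8, ratio 1.83) were members. The remaining 6 had ratios between 2.35 (*Arpc5*) and 4.05 (*Arpc4*).

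Serine/threonine phosphatases were the list with the largest share, at 4 members of 5 ranked genes. *mts* (the catalytic subunit of PP2A), *Pp2A-29B* (its scaffold) and *PP2A-B'* (now wrd, a regulatory subunit) were all lower in front than behind M6, but parted in M6. *mts* had 105.6, 108.1, 100.2, 119.6, 143.6, 125.7, 143.9 and 178.8 FPKM (ratio 1.79). *Pp2A-29B* had 72.0, 74.4, 78.0, 62.3, 104.1, 98.0, 109.9 and 99.0 (ratio 1.77), and *PP2A-B'* had 20.6, 21.1, 20.7, 23.5, 30.4, 29.4, 30.8 and 30.7 (ratio 1.497). In all 3, every value behind M6 was higher than every value in M1, M2 and M3–5. In M6, *Pp2A-29B* had its lowest value, while *mts* and *PP2A-B'* lay above their values in front. Their median transcript lengths were 2051 nt (*mts*), 2411 nt (*Pp2A-29B*) and 2779 nt (*PP2A-B'*). Ranked genes of 2051 to 2500 nt had a median anterior minus posterior difference of −0.06, and longer ones −0.53. The part of length in this rise was not tested. Alternative regulatory subunits *tws* (1.555 to 15.97 FPKM, ratio 10.3) and *wdb* (5.94 to 35.6, ratio 5.997) did not pass the floor. *Pp1-87B*, a catalytic subunit of PP1, had 67.0 to 119.5 FPKM (ratio 1.78) and the lowest anterior minus posterior difference of the members, −0.67.

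Chaperones gave 4 members of 15 ranked genes: *DnaJ-H* (ratio 1.54), *Tcp-1zeta* of the chaperonin ring (1.66), *Hsp83*, the fly Hsp90 (1.76), and *Droj2* (1.84). Ubiquitin and related modifiers gave 4 of 18. *smt3*, the fly SUMO, had 67.4 to 98.3 FPKM (ratio 1.46), and *lwr*, the E2 enzyme that conjugates it, 28.05 FPKM in M6 and 37.2 to 46.9 elsewhere (ratio 1.67). *alien*, a subunit of the COP9 signalosome, was the fourth (ratio 1.63), after *Ufd1-like*. The E1 enzyme of SUMO, *Aos1* and *Uba2*, did not pass the floor (ratios 2.96 and 1.73).

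Nuclear transport gave 2 members of 4 ranked genes, *Kap-alpha3* and the GTPase *Ran* (80.3 to 133.1 FPKM, ratio 1.66). Among 2 ranked tRNA synthetases, *Aats-asp* was a member (59.7 FPKM in M6, 84.5 to 106.7 elsewhere, ratio 1.79). Chromatin gave 1 of 7, the histone chaperone *Nap1* (ratio 1.66), and mRNA processing 1 of 12, the splicing factor *SF2* (ratio 1.85).

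The lists for the respiratory chain, glycolysis and general transcription supplied no member. None of 30 ranked respiratory chain genes was in the set, with a median ratio of 5.5, and none of 8 glycolytic genes, with a median of 11.3 and a lowest ratio of 6.71. None of the 4 ranked genes of general transcription was in it either, and that list is too small to read a share from. Median transcript lengths were 781 nt for the respiratory chain, 1410 nt for glycolysis and 617 nt for general transcription. The part of length in these shares was not tested. Among the groups left out by name, 12 of 32 proteasome genes past the floor had a ratio within the limit of the set, led by *Rpt4* at 1.33, and their median was 1.98. The same held for 3 of 81 cytoplasmic ribosomal genes (median 3.97), 1 of 11 mitochondrial ribosomal genes (median 4.91) and 0 of 16 V-ATPase genes (median 2.78). The plot by gene list shows the spread within each group.

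**Figure D2:**
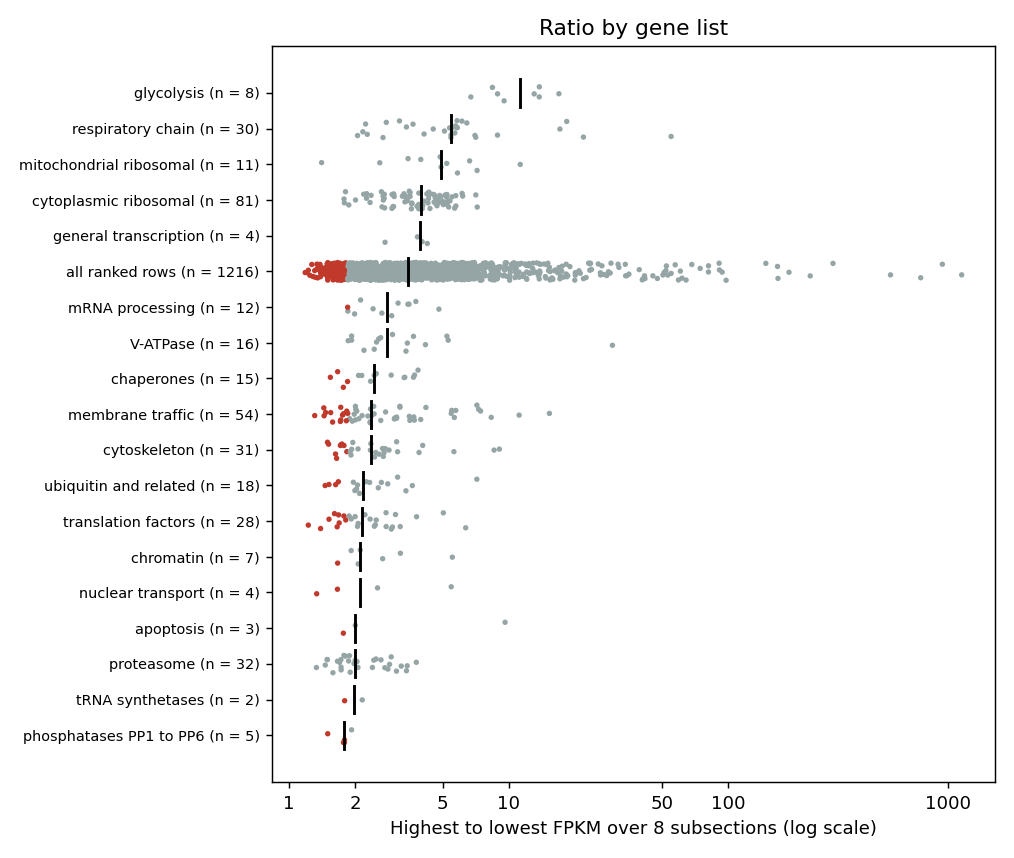
Ratio of highest to lowest FPKM over 8 subsections (log axis) for genes with at least 20 FPKM in every subsection, by gene list; red points are members, gray points other genes, and black bars medians. Phosphatases have the lowest median (1.78) and glycolysis the highest (11.3), against 3.46 over all ranked rows.

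Cell adhesion supplied a further group, chosen after the values were seen. *parvin* and *stck* (the fly PINCH) bind integrin-linked kinase where cells attach to the matrix, and *ics* encodes a partner of PINCH. *parvin* had 20.04 FPKM in M6 and 28.4 to 36.7 elsewhere (ratio 1.83), *stck* 44.0 to 77.0 (ratio 1.75) and *ics* 32.7 to 51.6 (ratio 1.58). The kinase *Ilk* itself had a ratio of 2.20. These genes act in muscle too, and the 6 visceral muscle markers summed to a value 3.29 times as high in M12–13 as in M6. The part of muscle RNA in the adhesion genes was not tested.

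Genes that are used as reference in quantitative PCR were listed to see which were even here. Of 33 listed, 17 were ranked and 4 were members: *Hsp83* (ratio 1.76), *14-3-3zeta* (1.77), *betaTub56D* (1.77) and *eIF-1A* (1.81). *alphaTub84B* came close at 1.91, from 428.9 to 819.5 FPKM. *Rap2l* followed at 2.03, *exba* at 2.20, *SdhA* at 2.27, *14-3-3epsilon* at 2.41, *Ef1alpha48D* at 2.47, *Cyp1* at 2.49 and *Act5C* at 2.68. The ratio was far larger for *Gapdh2* (6.71), *Ubi-p63E* (7.15), *Act42A* (8.57), *Cam* (9.06) and *Gapdh1* (9.51). *Gapdh1*, a glycolytic enzyme, ran from 90.8 FPKM in M6 to 864.1 in M1. Ribosomal reference genes, left out of the ranking by name, had ratios of 2.25 (*RpS13*), 3.51 (*RpS20*), 5.21 (*RpL32*) and 5.23 (*RpL13A*). *RpL32* (rp49), a widely used one, had 2757 FPKM in M2 and 529.6 in M10–11.

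Under the floor of 20 FPKM in at least 1 subsection were *TfIIFalpha* (2.02), *alphaTub84D* (2.11), *Tbp* (2.15), *RpII140* (2.395), *Gas41* (3.10), *sws* (3.28), *Ef1alpha100E* (3.66), *RpII215* (5.45), *Act79B* (6.605), *Su(Tpl)* (6.62), *Pgi* (19.1) and *betaTub60D* (24.4). None of the 33 matched the ratio of any of the 10 evenest members. Those 10 are a small part of the 1216 ranked genes by construction, so nothing is read from this.

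The small differences left in the members were spread over the gut. The highest value lay in M1 for 23 members, M7–8 for 22, M6 and M9 for 21 each, M2 for 19, M10–11 for 18, M3–5 for 15 and M12–13 for 11. M1 and M2 together held the peak of 42 members, or 28%, against 57.4% of all ranked genes. The median anterior minus posterior difference was −0.01 over members (range −0.67 to 0.69) and 0.77 over the other 1066 ranked genes, and 74 of 150 members were higher in front. These counts come from the values that chose the members, and taking small ratios leaves out genes that are high in front, so nothing is read from the contrast.

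The lowest value was in M6 for 50 members (33.3%), against 48.4% of all ranked genes, and next in M12–13 for 22 and M9 for 20. Members lowest in M6 included *parvin*, *Tsp29Fb*, *MFS16* and *Aats-asp*, and members highest in M6 included *Snap*, *Ef1gamma*, *endos*, *eIF-1A*, *Atg8a* and *Rab2*. The mean log2 difference of M6 from the other libraries ran from −0.71 (*Tsp29Fb*) to 0.69 (*Snap*), with a median of −0.12. These positions depended on the scale of the M6 library. When every library was divided by the median of its ratios, which moved M6 up by 0.37 on the log2 scale, only 7 members were lowest in M6 and 74 were highest in it. The names high or low in M6 are therefore relative to the authors' upper-quartile scale.

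**Figure D3:**
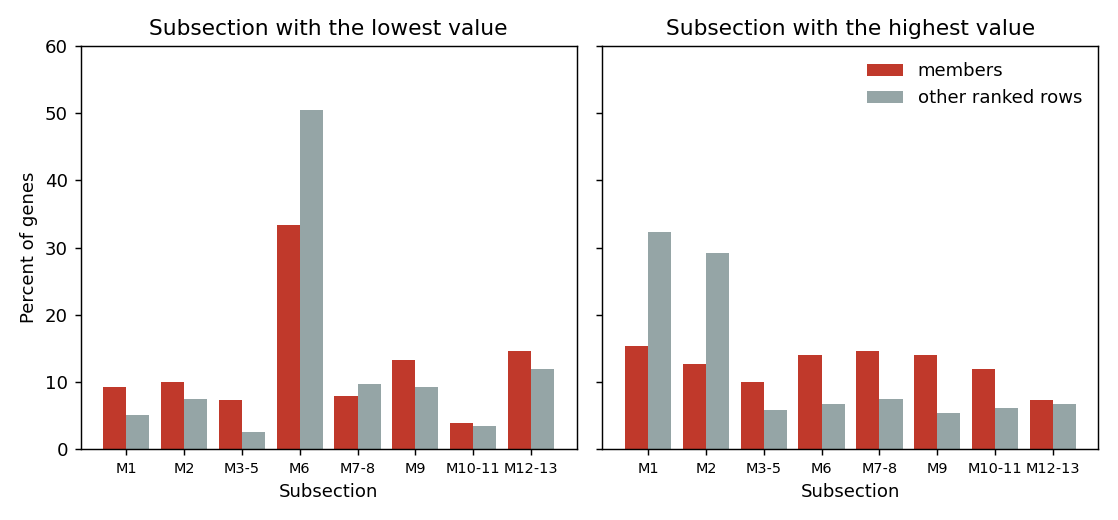
Percent of the 150 members (red) and of the 1066 other ranked rows (gray) whose lowest (left) or highest (right) FPKM falls in each of 8 subsections. Peaks of members are spread from 7.33% to 15.3% per subsection, while 32.3% of the other rows peak in M1 and 29.3% in M2.

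Length was not part of the rule, and the members were longer than the other ranked genes. The median transcript length, from a later annotation joined by gene identifier, was 1757 nt for the 141 members with a match (quartiles 1392 and 2250), 1268 nt for 1028 other ranked genes (829 and 1828) and 1584 nt for 13635 named rows. Over the 5857 named genes with a length and a mean above 3 FPKM it was 1698 nt. The 95% interval of the members' median (1601 to 1924 nt) treats genes as independent draws, although a rule chose them. It therefore tests no difference from other genes. Only 10 members, or 7.09%, were under 1000 nt, against 36.1% of the others and 21.2% of the genes with a mean above 3 FPKM. With ranked genes split into 10 groups by length, members made up 0 of 117 genes in the shortest group (up to 612 nt), 3 of 117 in the next and 23 of 116 in the longest. The short exceptions included *hoka* (682 nt) and *smt3* (716 nt).

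The same libraries held a trend with length. The median anterior minus posterior difference fell from 1.57 in the shortest group of ranked genes to −0.53 in the longest and crossed 0 between 1557 and 2046 nt. Members were 17.9% of the genes from 1772.5 to 2045.5 nt and 19.8% of the longest group. Spearman's rho between length and this difference was −0.32 over 141 members and −0.68 over the 1028 others. Both are descriptions across genes of the same 8 libraries, and genes are not replicates. Regional differences in RNA and differences in how the libraries covered short transcripts cannot be told apart here.

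**Figure D4:**
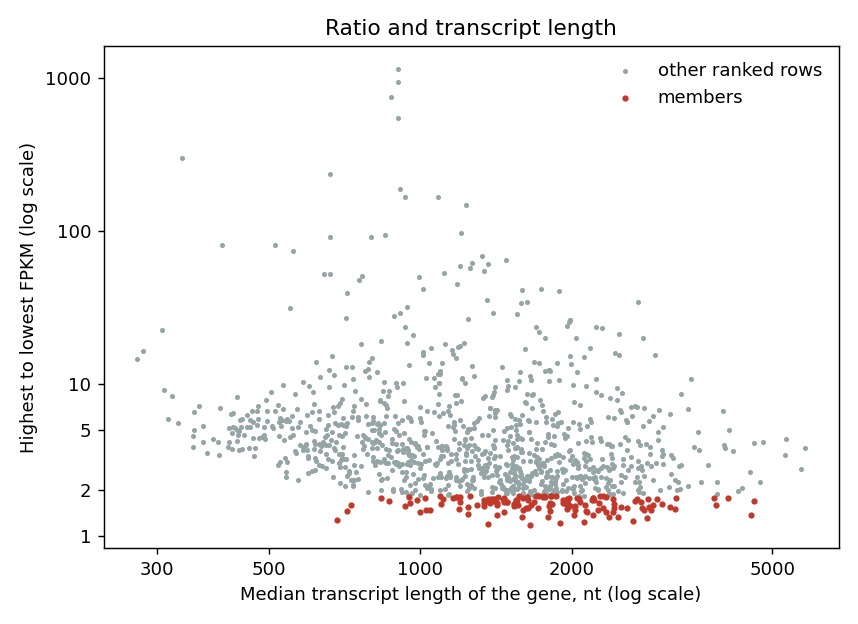
Ratio of highest to lowest FPKM against median transcript length in nt (both axes log) for 141 members (red) and 1028 other ranked rows (gray). Few members are short: 10 lie under 1000 nt, against 371 of the other rows.

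When the trend of each library with length was removed, only genes with a length could be ranked, which left 141 of the 150 members. Of these, 35 were again among the 150 evenest, and all 35 were also found again with the median-ratio scale. They included *Tpr2*, *Kap-alpha3*, *Rab10*, *PP2A-B'*, *Pp2A-29B*, *Arpc1*, *Arpc2*, *capt*, *eIF3-S8*, *Adam*, *eIF-4E*, *Ran*, *Hsp83*, *14-3-3zeta*, *Aats-asp*, *AP-1mu*, *stck* and *parvin*. *Kap-alpha3* then had a ratio of 1.14 and *PP2A-B'* 1.16. Of the 10 evenest members as deposited, *Tpr2* and *Kap-alpha3* were among the 35. *Vps4* had no length and could not be ranked, and the others were ranked but not among the 35. The ratio went from 1.18 to 1.83 for *me31B*, from 1.22 to 1.81 for *eIF-4a* and from 1.28 to 3.56 for *hoka*. *decay* went from 1.76 to 2.25. Over the 141 members with a length, the median ratio was 1.87 with the trend removed, against 2.31 over ranked genes. The subtracted fit also holds the overall level of each library, so this setting rescales libraries too, as the median ratio does. With the trend removed, 5 members were lowest in M6 and 73 highest, against 7 and 74 with the median ratio. The overlap of these 2 settings is thus partly built in. The parts of length and of library level in these changes were not separated.

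Evenness was also relative to the total. Summed FPKM differed between libraries, from 542159 in M12–13 to 1805860 in M2. The 6 midgut markers summed to 104409 in M2, a small part of that total. The source of the difference in totals was not tested. Rescaled to the same sum, the members had ratios from 1.81 to 5.94 with a median of 3.50, near the 3.48 of all ranked genes, and 2 of them (*CG7656* and *CG1161*) stayed among the 150 evenest. The count of members found again is shown for each setting.

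**Figure D5:**
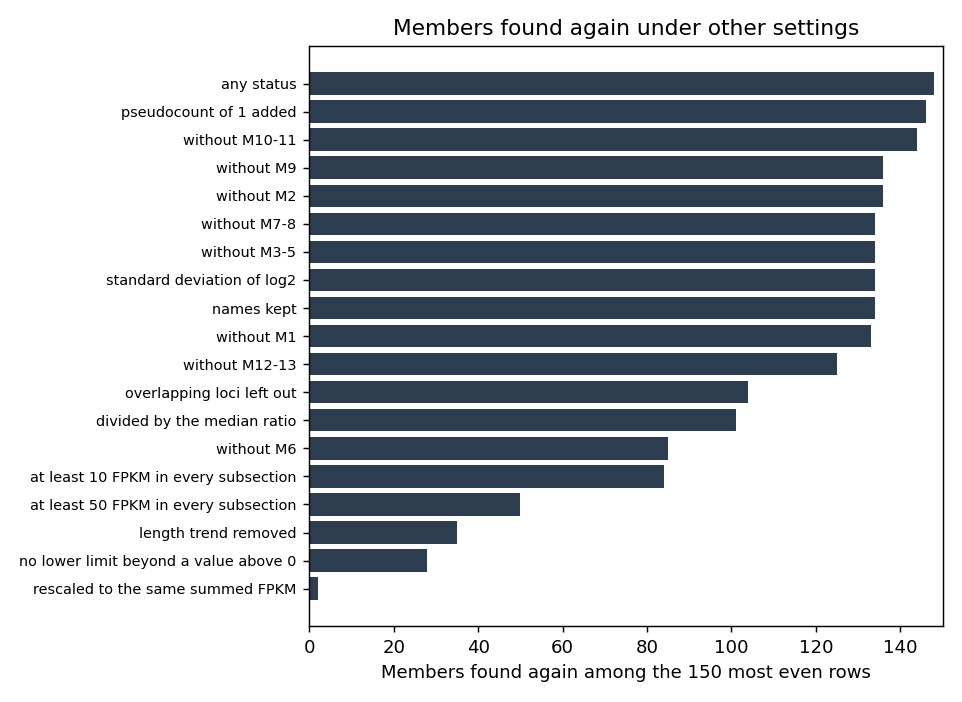
Number of the 150 members found again among the 150 evenest rows (horizontal axis) under each other setting, 1 bar per setting. The count is 148 with any status, 85 without M6, 35 with the length trend removed (of the 141 members with a length) and 2 with every library rescaled to the same summed FPKM.

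The members lay on all major chromosome arms, with 42 on 2L, 32 on 2R, 29 on 3R, 26 on 3L and 18 on X. Arm 2L held 28% of members and 18.4% of ranked genes, and 2R, 3L, 3R and X each held a smaller share of members than of ranked genes. Another member lay within 10 kb for 16 members (10.7%), against 8.44% of the other ranked genes. The closest pair was *Mob4* and *Rab2*, whose rows on 2R were separated by 77 nt and ran in diverging directions. *chic* and *eIF-4a* on 2L also diverged, with 745 nt between them, and both belong to the 10 most abundant members. A diverging start of another protein-coding gene within 500 nt was found for 53 of 141 members (37.6%, 95% exact binomial interval 29.6 to 46.1%), 32.9% of other ranked genes (30.0 to 35.9%) and 24.9% of all protein-coding genes. The intervals of the first 2 groups overlapped, but such an overlap does not test a difference. They also treat genes as independent, while a diverging pair such as *Mob4* and *Rab2* can be counted for both genes. The rows of 46 members (30.7%) overlapped another row, against 36.3% of other ranked genes. Since the libraries were unstranded, reads from such overlaps cannot be told apart by strand, and *Ssk*, *Tsp29Fb*, *Hsp83*, *capt*, *parvin* and *TSG101* are among these 46.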

How the data were processed

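Per the labels and the methods of the study, RNA of 8 midgut subsections was sequenced as 1 unstranded single-end library each. The authors filtered reads with PRINSEQ, mapped them with Bowtie and TopHat 2.0.6 and made the FPKM values with Cuffdiff 2.0.2, with upper-quartile scaling, multiread correction, fragment bias correction and blind dispersion. The deposited FPKM values and the upper and lower bounds of their 95% intervals were used as deposited. The table holds no counts, so the depth behind a value is unknown.

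Rows with a name, status OK and at least 20 FPKM in all 8 libraries were ranked by the highest over the lowest FPKM. Names starting with RpL, RpS, mRp, Pros, Rpn, Rpt or Vha were left out, and 150 rows were taken. The 33 rows without a name were not used, and 1 of them would have passed. No test between subsections was possible with 1 library each. Differences used log2(FPKM + 1). Transcript lengths, start sites and present symbols came from a later annotation (BDGP6), joined by identifier (141 of 150 members). Positions are 1-based on the FlyBase release 5 genome and may be those of Cuffdiff bundles. To remove the length trend, a lowess fit (span 0.3) was subtracted in each library, which also takes out the overall level of the library. Python 3.11.15, pandas 2.3.3, scipy 1.17.1 and statsmodels 0.14.6 were used. The ranking code was run on simulated rows with planted even genes that were well separated from the rest, which checks the code and not these data. With a length trend added, fewer planted rows were found than after that trend was removed, an outcome the check was set to require.

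Named genes were *decay*, the 10 evenest and 10 most abundant members, the 3 on each side of the limit, list members and the reference genes. Others, including all complexes, were chosen after their values were seen. The members, lists and alternatives were chosen with earlier results of these data known.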

Additional observations from a re-analysis of the deposited data

How the results depend on the processing

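Of the 150 members, between 85 (without M6) and 144 (without M10–11) were found again when 1 subsection was left out, and 74 in all 8 such runs. Another floor gave 84 (at least 10 FPKM), 50 (at least 50 FPKM, which were all the members above that floor) and 28 (no floor beyond a value above 0). Rescaling to the same summed FPKM gave 2, and removing the length trend gave 35 of the 141 members with a length. The other settings gave 101 to 148, where 104 is the number whose rows overlap no other row.

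The median transcript length of the chosen rows was 1489.5 nt with at least 50 FPKM, 943.75 nt after rescaling to the same sum and 1125.5 nt with the length trend removed. Elsewhere it lay between 1635.75 and 1893 nt. Rows lowest in M6, among the 150 chosen anew, numbered 22 with the median ratio, 26 with the same sum and 26 with the trend removed. They numbered 50 as deposited and 45 to 51 with another subsection left out. The remaining settings ran from 37 (no floor beyond a value above 0) to 57 (ranked by the standard deviation of log2 values).

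The ratio of *decay* kept its value of 1.76 but left the 150 evenest with at least 10 FPKM, with no floor and without M6. It also left them with the median ratio (1.83), the trend removed (2.25) and the same sum (2.88). With 1 subsection left out it ran from 1.34 to 1.76. Promoter motifs were not run, as promoter sequences were not used here. No paired analysis was possible because each subsection had 1 library.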

Other observations

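A few members outside the lists of the report act in signaling, and those named here were picked after their values were seen. *Ras85D*, the fly Ras, ran from 33.8 FPKM in M1 to 57.5 in M6 (ratio 1.70). The stress kinase *p38b* had 20.5 FPKM in M6 and 37.6 in M3–5 (ratio 1.83), with higher values in front (difference 0.69). *SNF1A*, the catalytic subunit of the energy sensor AMPK, had 31.2 to 52.1 FPKM (ratio 1.67). *Galphas*, which couples receptors to adenylate cyclase, had 20.4 to 33.2 FPKM (ratio 1.62). *key*, the regulatory subunit of the IKK complex of the Imd immune pathway, had 33.2 to 53.7 FPKM (ratio 1.62). *arm*, the fly beta-catenin, had 39.0 FPKM in M6 and 60.8 in M7–8 (ratio 1.56).

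A few other members, picked in the same way, encode enzymes of lipids, membranes or mitochondria. *Sac1*, a phosphoinositide phosphatase, had 29.9 to 40.3 FPKM (ratio 1.35), and the kinase *CG17471* (now PIP4K) 45.7 to 66.1 (ratio 1.45). *Spt-I*, of sphingolipid synthesis, had 37.9 FPKM in M6 and 53.9 to 69.1 elsewhere (ratio 1.82). *Fpps*, which makes farnesyl pyrophosphate, had 29.1 to 33 FPKM in M1, M2 and M3–5 and 42.2 to 51.6 from M6 on (ratio 1.77). *Nmt*, which attaches myristate to proteins, had 21.5 to 35.5 FPKM (ratio 1.65). *Atpalpha*, the catalytic subunit of the sodium pump, had 35.6 to 49.4 FPKM (ratio 1.39). *Pink1*, a kinase of mitochondrial quality control, had 40.6 to 60.8 FPKM (ratio 1.498).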
